A study of Mus musculus with 6 samples.

Results

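The 10 genes described here are markers of alternatively activated macrophages: Mrc1, Il4ra, Cd200r1, Clec10a, Mgl2, Chil3, Retnla, Arg1, Cd163 and Folr2. They were taken as a list by name, and all 10 were found among the 22180 genes measured, each through the single probe set annotated to that symbol alone. The macrophages came from bone marrow of 3 C57BL/KaLwRij mice and were matured for 7 days in M-CSF, the ligand of the receptor CSF1R. After a night with 5TGM1-luc, a mouse myeloma line that carries luciferase, one set of cultures had an antibody to mouse CSF1R at 0.5 nM and the other an IgG control, both for 3 days. All cultures thus shared the M-CSF and the myeloma cells, which 4 washes were meant to take away before RNA extraction, and no culture without myeloma cells or without any antibody was among the samples. Each group had 3 arrays, and nothing in the labels ties an array to a mouse, so the p-values below rest only on the differences among these cultures, and part of that spread may be technical.

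Alternative activation is the state that macrophages enter when IL-4 or IL-13 binds receptors containing the IL-4 receptor alpha chain, the product of Il4ra. Janus kinases on the receptor then phosphorylate the transcription factor STAT6, which switches on genes such as Arg1, Chil3 and Retnla in mouse macrophages. Other genes of the list mark the same state by their surface receptors, and some of these, such as Mrc1, Cd163 and Folr2, are also carried by tissue-resident and tumour-associated macrophages. CSF1R signalling keeps macrophages alive, and its blockade is studied in tumours as a way to remove or re-educate them.

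Values are log2 intensities, so a difference of 1 is a doubling. Arrays carry no measured background here, so odorant and pheromone receptor genes (1394, olfactory and vomeronasal) served as a guide to it, set at their 95th percentile, 4.92. Macrophage RNA was looked for with 12 macrophage markers: the 11 that were measured lay above that guide in both groups. Of 12 plasma cell markers, 11 lay above it in at least 1 group too. The guide thus shows that macrophage RNA was present, and does not show that RNA of the myeloma cells was absent. Arrays of 1 group correlated at 0.992 to 0.993 over all probe sets, and arrays of different groups at 0.984 to 0.985.

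With the CSF1R antibody, 5 of the 10 markers were higher than with IgG and 0 were lower (limma, adjusted p under 0.05 over all genes; at an unadjusted p under 0.05 the counts were also 5 and 0). Over all genes, 12.5% were called higher and 16% lower. The 5 that rose were the cytokine receptor gene Il4ra, the inhibitory receptor gene Cd200r1, the lectin genes Mrc1 and Clec10a and the folate receptor gene Folr2, by 0.56 to 1.60. The secreted and enzymatic markers Chil3, Retnla and Arg1 did not pass, nor did Mgl2 and Cd163. The median change of the 10 was 0.48, beside −0.02 over all genes. Mrc1, Il4ra, Cd200r1, Arg1 and Folr2 lay above the background guide in both groups, and 4 of these 5 rose. Of the 13130 genes above the guide in at least 1 group, 20.1% were called higher.

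**Figure D1:**
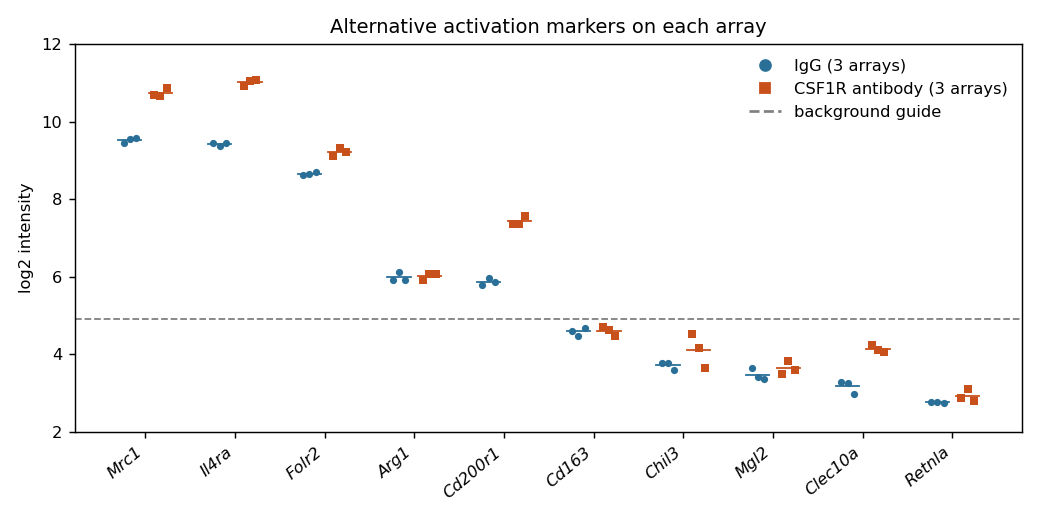
Log2 intensity (vertical axis) of each of the 10 markers on the 3 IgG arrays (circles) and the 3 CSF1R antibody arrays (squares), with short lines at group means and a dashed line at the background guide of 4.92. For Mrc1, Il4ra, Folr2, Cd200r1 and Clec10a the squares lie wholly above the circles, while Arg1 and Cd163 overlap; levels are to be read within a gene, since probe sets differ in brightness.

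Il4ra rose most of the list. Its log2 intensity was 10.93, 11.04 and 11.08 with the antibody and 9.44, 9.36 and 9.45 with IgG. The groups were far apart, with no array of either group near the other. The rise was 1.60 (SE 0.06; 3.02-fold, 95% interval 2.74 to 3.33; limma adjusted p = 1.1e-05), and 0.604% of all genes rose by more. Il13ra1, which encodes the chain that pairs with IL-4 receptor alpha to bind IL-13, lay at 9.82 ± 0.12 (SD, n = 3) against 9.49 ± 0.07, a rise of 0.33 (SE 0.08; limma adjusted p = 0.019). That call was lost without IgG replicate 1 (adjusted p = 0.053) and without IgG replicate 2 (adjusted p = 0.067). Set against each other within each array, the Il4ra rise exceeded that of Il13ra1 by 1.27, and the 3 antibody arrays did not overlap the 3 IgG arrays (exact two-sided permutation p = 0.10, the smallest that 3 and 3 arrays allow; 0.12 adjusted over the 5 pairs of genes compared, of which 3 hold a gene under the guide and are not given).

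Mrc1 encodes the mannose receptor CD206, which takes up glycoproteins ending in mannose. It stood at 10.67, 10.65 and 10.87 with the antibody and at 9.44, 9.55 and 9.57 with IgG. Every antibody array was more than 1 log2 unit above every IgG array. Mrc1 rose by 1.21 (SE 0.08; 2.31-fold, 95% interval 2.04 to 2.63; limma adjusted p = 6.9e-05), and 1.84% of genes rose by more. Mrc2, its relative on fibroblasts and other cells, lay at 5.37 ± 0.11 against 5.40 ± 0.14 (SD, n = 3).

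RefSeq sequences of the 250 bases before the gene start (build GRCm38.p6) were at hand for 7 of the 10 markers; Cd200r1, Clec10a and Arg1 had none. Those of the 2 most strongly changed receptor genes with an entry are shown first. They were searched on both strands for TTC and GAA with 4 bases between them, the palindrome with the spacing STAT6 prefers, for TTCNNNGAA, the spacing of other STAT proteins, for GAGGAAGT, a site of the macrophage factor PU.1, and for a repeat of GAAA with 2 bases between its copies, the interferon response element. Capitals would mark matches, and these windows held none, which says only that these letters are not in them.
Il4ra (chr7:125552021-125552270, plus strand): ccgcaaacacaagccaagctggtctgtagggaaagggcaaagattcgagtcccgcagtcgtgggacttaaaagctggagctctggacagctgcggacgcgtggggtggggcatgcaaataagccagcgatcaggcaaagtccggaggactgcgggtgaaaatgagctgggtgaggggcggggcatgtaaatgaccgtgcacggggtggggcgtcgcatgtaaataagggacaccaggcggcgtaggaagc
Mrc1 (chr2:14229164-14229413, plus strand): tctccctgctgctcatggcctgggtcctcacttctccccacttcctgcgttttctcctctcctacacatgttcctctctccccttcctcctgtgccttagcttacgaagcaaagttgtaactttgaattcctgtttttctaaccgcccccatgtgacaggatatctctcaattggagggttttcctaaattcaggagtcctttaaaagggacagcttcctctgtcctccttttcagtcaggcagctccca
Of 32851 RefSeq promoters of the same length, 5.85% held the STAT6-type palindrome, 7.02% TTCNNNGAA, 2.44% GAGGAAGT and 2.98% the interferon response element. The windows of Mgl2, Cd163 and Folr2 held no match either.

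Cd200r1 encodes the receptor for CD200, through which CD200 on other cells restrains macrophages. Its values were 7.36, 7.36 and 7.56 with the antibody and 5.79, 5.96 and 5.85 with IgG, again without overlap. The rise was 1.56 (SE 0.08; 2.95-fold, 95% interval 2.59 to 3.35; limma adjusted p = 2.7e-05). Cd200r4, which lies close to Cd200r1 on chromosome 16 and encodes an activating relative, stood at 8.28, 8.28 and 8.09 against 6.45, 6.66 and 6.69. It rose by a like amount, 1.62 (SE 0.09; limma adjusted p = 3.6e-05). Whether transcripts of one hybridise to the probe set of the other was not tested. Cd200r2 lay below the background guide on all arrays of both groups, with means of 3.05 and 2.51, a change of 0.54 (limma adjusted p = 0.059) that passed without antibody replicate 3 (0.68; adjusted p = 0.030), with array weights, an intensity trend or median centring, and with the replicate block (adjusted p = 0.0097). Cd200r3, also under the guide, was called higher at 3.78 against 3.50 (0.28; limma adjusted p = 0.014), a call lost without IgG replicate 2 (adjusted p = 0.052). Cd200, the ligand, had means of 5.26 ± 0.27 after the antibody and 5.64 ± 0.06 after IgG (SD, n = 3; change −0.38; limma adjusted p = 0.082). It passed without antibody replicate 1 (−0.52; adjusted p = 0.012) and among genes above the 50th percentile of mean signal (adjusted p = 0.031) or above the receptor guide (adjusted p = 0.040).

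Clec10a and Mgl2 are neighbouring genes on chromosome 11 for the galactose-type lectins CD301a and CD301b, which bind sugars ending in galactose or N-acetylgalactosamine. Clec10a read 4.24, 4.11 and 4.07 with the antibody and 3.28, 3.27 and 2.98 with IgG. All 6 values were under the background guide, and yet the groups were apart. The difference in signal was 0.96 (SE 0.10; limma adjusted p = 5e-04), and as both groups lie under the guide no fold is given. Of the 9050 genes that lay below the guide in both groups, 1.47% were called higher. Mgl2 read 3.50, 3.83 and 3.59 against 3.64, 3.42 and 3.36, which overlap (change 0.17; 95% interval −0.10 to 0.43; limma adjusted p = 0.34). With both genes under the guide, their changes were not set against each other. Sequences of the probes were not used here, so how far either probe set reads its neighbour was not tested.

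Folr2 encodes folate receptor beta, which marks resident and tumour-associated macrophages. It read 9.12, 9.32 and 9.21 with the antibody and 8.63, 8.64 and 8.70 with IgG. The groups did not overlap, and the rise of 0.56 was the smallest of the 5 called (SE 0.06; 1.47-fold, 95% interval 1.33 to 1.64; limma adjusted p = 0.00089). Folr1, the adjacent gene for folate receptor alpha of epithelia, lay below the guide at 4.02 ± 0.11 and 3.97 ± 0.08 (SD, n = 3). Cd163, the scavenger receptor for haptoglobin-haemoglobin, was below the guide as well. It read 4.71, 4.63 and 4.48 against 4.61, 4.48 and 4.69, with overlapping groups and a change of 0.02 (95% interval −0.19 to 0.22; limma adjusted p = 0.92). A value under the guide gives no measure of how far Cd163 differs from Mrc1.

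**Figure D2:**
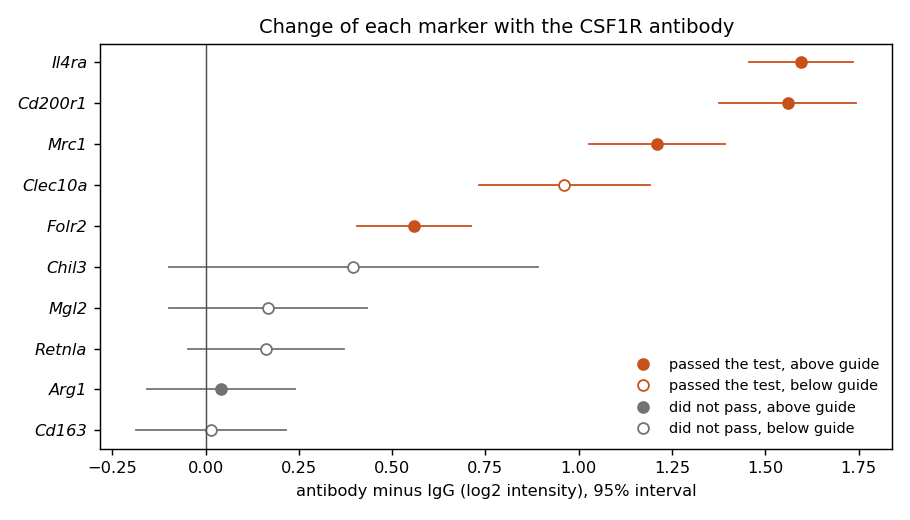
Change of each marker, antibody minus IgG in log2 intensity (horizontal axis), with limma's 95% interval as a bar; filled points are genes above the background guide and open points genes below it in both groups. The 5 coloured genes passed the test, from Folr2 at 0.56 to Il4ra at 1.60, and the intervals of the 5 grey genes include 0.

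Chil3, Retnla and Arg1 are the classical IL-4 response genes of mouse macrophages, and none of them passed the test. Chil3 encodes the chitinase-like lectin Ym1 and read 4.51, 4.17 and 3.65 with the antibody against 3.77, 3.78 and 3.60 with IgG. The antibody arrays were spread widely, with replicate 3 inside the IgG range. The change was 0.40 (SE 0.21; 95% interval −0.10 to 0.89; limma adjusted p = 0.23). Without antibody replicate 3 it was 0.63 (adjusted p = 0.018), the only array whose omission changed the call of any of the 10 markers. Both groups of Chil3 lay below the background guide, as did its neighbour Chil4 (2.81 ± 0.12 and 2.88 ± 0.28; SD, n = 3).

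Retnla encodes the secreted resistin-like molecule RELM-alpha and gave signal well under the guide on every array, at 2.87, 3.12 and 2.80 with the antibody and 2.78, 2.78 and 2.73 with IgG. The antibody values lay just above the IgG values, by 0.16 in the mean (95% interval −0.05 to 0.37; limma adjusted p = 0.24). Groups apart in this way were common, since for 16.6% of all genes every antibody array was above every IgG array. Values this far below the guide do not show whether either gene is used by these cells.

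The upstream windows of Chil3 and Retnla are the ones that did hold matches. Several patterns of letters were searched, each with the share given above, and whether matches go with the response to IL-4 was not tested. They are shown in the direction of transcription with each match in capitals.
Chil3 (chr3:106167565-106167814, minus strand): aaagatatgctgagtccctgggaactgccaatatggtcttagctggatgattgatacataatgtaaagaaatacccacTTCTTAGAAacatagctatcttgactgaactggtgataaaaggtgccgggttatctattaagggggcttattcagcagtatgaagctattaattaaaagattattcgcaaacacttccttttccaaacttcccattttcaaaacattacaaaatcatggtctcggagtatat
Retnla (chr16:48842359-48842608, plus strand): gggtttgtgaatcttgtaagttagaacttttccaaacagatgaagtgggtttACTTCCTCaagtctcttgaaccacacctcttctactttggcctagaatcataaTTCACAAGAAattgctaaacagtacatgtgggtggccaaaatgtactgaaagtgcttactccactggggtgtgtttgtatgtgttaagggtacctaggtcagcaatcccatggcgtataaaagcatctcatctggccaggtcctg
In Chil3 the capitals mark TTCTTAGAA, a match to TTCNNNGAA from −172 to −164 before the start. In Retnla they mark TTCACAAGAA, a match to the STAT6-type palindrome from −145 to −136, and ACTTCCTC, the PU.1 letters on the other strand, from −198 to −191. These are descriptions of sequence, and binding was not measured.

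Arg1, unlike Chil3 and Retnla, lay above the guide in both groups. It encodes the liver-type arginase that turns arginine into ornithine and urea. The antibody arrays read 5.91, 6.08 and 6.08 and the IgG arrays 5.92, 6.13 and 5.91, and these ranges overlap almost fully. The change was 0.04 (SE 0.08; limma adjusted p = 0.77), with a 95% interval of the fold from 0.90 to 1.18, so a rise of the size seen for Folr2 lies outside that interval. Arg2, for the mitochondrial arginase, did rise, from 5.68, 5.50 and 5.69 with IgG to 6.43, 6.65 and 6.45 with the antibody (change 0.89, SE 0.08; limma adjusted p = 0.00042). Nos2, which competes for the same arginine to make nitric oxide, stood at 5.84 ± 0.16 against 5.60 ± 0.07 (SD, n = 3; limma adjusted p = 0.10). It passed without antibody replicate 1 (adjusted p = 0.046) and among genes above the median signal (adjusted p = 0.039). The change of Arg1 was below that of Nos2 by 0.20 on the log2 scale within arrays, without overlap (exact two-sided permutation p = 0.10; 0.12 adjusted over 5 pairs).

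Of 13 measured genes of arginine use, Arg1 included, 3 were higher and 5 lower with the antibody. Their median change of −0.04 has no stable sign, at 0.01 without antibody replicate 2 and −0.10 without antibody replicate 3. Gatm, which starts creatine synthesis from arginine, rose by 1.11 (SE 0.04; limma adjusted p = 1.3e-05). Aldh18a1, an enzyme of proline and ornithine synthesis, fell by 0.61 (SE 0.05) and the arginine transporter gene Slc7a1 by 0.59 (SE 0.05; limma adjusted p = 0.00019 and 0.00018). Picked out after their values were seen, Odc1 and Srm, which lead from ornithine to polyamines, fell by 0.45 (SE 0.05) and 0.56 (SE 0.05).

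**Figure D3:**
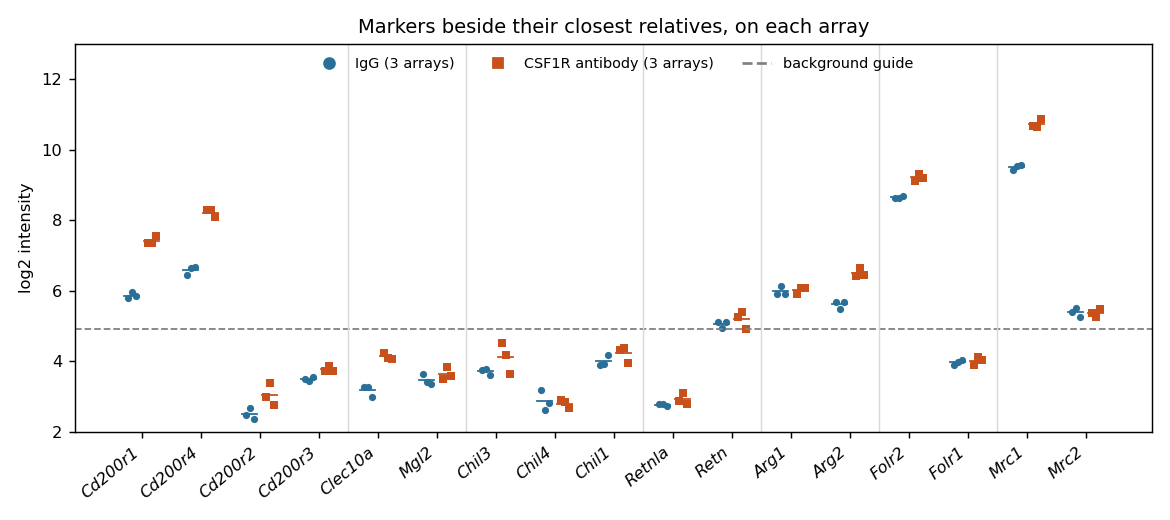
Log2 intensity (vertical axis) of the markers beside their relatives, on 3 IgG arrays (circles) and 3 CSF1R antibody arrays (squares), with lines at group means and a dashed line at the background guide of 4.92. Cd200r1 and Cd200r4 are both higher with the antibody, as are Arg2, Folr2 and Mrc1, whereas Arg1, Folr1 and Mrc2 overlap between groups.

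Among 26 relatives of the markers by family, 8 were higher and 1 was lower, with a median change of 0.13. Only 12 of the 26 lay above the guide in at least 1 group, with a median of 0.27. Cd200r3 and Asgr2, both called higher, lay below it in both groups. The 1 lower relative, Ly75, a mannose receptor family member of dendritic cells named after its value was seen, fell by 0.56 (SE 0.05; limma adjusted p = 0.00024). It read 6.39 on each of the 3 antibody arrays, a tie that lowers the spread behind this SE. Besides Cd200r4 and Arg2, the relatives that rose most were Il21r (1.63, SE 0.10), a cytokine receptor gene of the same family as Il4ra, and Cd5l (1.10, SE 0.09), which shares scavenger receptor domains with Cd163. Cd200 joined Ly75, making 2 lower relatives, without antibody replicate 1, among genes above the 50th percentile of mean signal or above the receptor guide, and at an adjusted p under 0.10.

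The machinery through which IL-4 and IL-13 act was measured for 14 of 16 listed genes, Il4ra included. Of these, 6 were higher and 0 lower (limma; 6 and 1 at an unadjusted p under 0.05), with a median change of 0.09. That median was 0.05 without antibody replicate 1 and 0.18 without antibody replicate 2, and 0.22 to 0.40 under the filters on low signal, which leave fewer genes. Jak1, the kinase bound to IL-4 receptor alpha, read 10.04, 10.04 and 10.08 with the antibody and 8.70, 8.72 and 8.76 with IgG. It rose by 1.33 (SE 0.04; limma adjusted p = 1.1e-05), with very little spread. Stat6 read 10.38, 10.38 and 10.44 against 9.93, 9.92 and 9.90, a rise of 0.48 (SE 0.05; limma adjusted p = 0.00041). Socs3, a feedback inhibitor of cytokine signals, rose by 1.26 (SE 0.08) and Ptpn6, the phosphatase SHP-1, by 0.56 (SE 0.05; limma adjusted p = 8.5e-05 and 0.00024). Of the cytokines themselves, Il4 lay below the guide, at 3.59 ± 0.20 and 3.53 ± 0.06, and Il13 just above it, at 5.11 ± 0.23 and 4.99 ± 0.05 (SD, n = 3). The feedback genes Socs1 (5.99 ± 0.04 against 6.04 ± 0.11) and Cish (5.83 against 5.82) did not pass. The adapter gene Irs2 read lower, at 7.24 ± 0.24 against 7.49 ± 0.07 (change −0.26; limma adjusted p = 0.18), and passed without antibody replicate 3 (change −0.39; adjusted p = 0.008). Il4, Il13, Socs1, Cish and Irs2 were picked out after their values were seen.

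Of 15 measured transcription factors and chromatin regulators of alternative activation, 9 were higher and 3 lower, with a median change of 0.31. Maf, a factor of macrophage maturation, rose by 1.67 (SE 0.07; limma adjusted p = 1.4e-05), Bhlhe40 by 0.67 (SE 0.06) and Pparg, the lipid-sensing receptor that maintains the alternative state, by 0.59 (SE 0.05). Myc fell by 0.52 (SE 0.06; limma adjusted p = 0.00086). The other two lower ones, named after their values were seen, were Irf4, which plasma cells also use, with a fall of 0.41 (SE 0.06; limma adjusted p = 0.0019), and Bhlhe41, which fell by 0.26 (SE 0.05; limma adjusted p = 0.010). With cyclic loess scaling Bhlhe41 did not pass (−0.14; adjusted p = 0.069).

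A wider set of alternative activation genes outside the 10 was measured for 28 of 31. Of these, 10 were higher and 4 lower, with a median change of 0.09, and 5 were higher at an adjusted p under 0.01. Cd83, a surface protein of activated antigen-presenting cells, rose by 1.45 (SE 0.10), Plxdc2 by 1.27 (SE 0.05) and Clec7a, the beta-glucan receptor Dectin-1, by 0.86 (SE 0.07; limma adjusted p from 1.6e-05 to 0.00019). Rnase2a, an eosinophil-type ribonuclease gene induced by IL-4, read 4.66 with the antibody, under the guide, against 5.58 with IgG, and was called lower (limma adjusted p = 0.00063); the size of its fall is limited by background. The other lower genes, named after their values were seen, were the matrix gene Fn1 (−0.70, SE 0.06), the anti-inflammatory cytokine gene Il10 (−0.58, SE 0.06) and the elastase gene Mmp12 (−0.27, SE 0.05). Mmp12 did not pass with cyclic loess scaling (−0.15; adjusted p = 0.051). The IL-4-induced chemokine genes Ccl17, Ccl22 and Ccl24, picked out after their values were seen, all lay below the guide. Ccl22 read 4.17 with the antibody and 4.26 with IgG, and Ccl24 4.75 and 4.80. Ccl17, at 3.36 and 3.19, is among the 10 called higher (0.17; limma adjusted p = 0.044), but omission of any 1 array (adjusted p 0.055 to 0.11), the intensity trend (0.13), median centring (0.052) and the replicate block (0.11) each ended that call.

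Genes of resident macrophages, with which Folr2, Mrc1 and Cd163 are often found, were higher in 11 of 15 measured cases and lower in 1, with a median change of 0.75. F13a1, a coagulation factor subunit gene, rose by 2.53 (SE 0.05), the antibody-recycling receptor gene Fcgrt by 2.34 (SE 0.05), the carbonyl reductase gene Cbr2 by 2.21 (SE 0.07) and Gas6, a bridge to dying cells, by 1.81 (SE 0.05; limma adjusted p from 8.1e-06 to 9e-06). The 1 lower gene, Vsig4, was named after its values were seen and fell by 1.29 (SE 0.19), from 4.93 with IgG, at the guide, to 3.63, under it. The size of the Vsig4 fall is limited by background. Lyve1, Timd4 and Ccl24 lay below the guide in both groups. Timd4, at 3.89 against 3.54, is among the 11 called higher (limma adjusted p = 0.03, and 0.01 to 0.1 on omission of single arrays). Genes of classical activation, the opposite state in the textbook scheme, were higher in 8 of 17 cases and lower in 0 (limma; 9 and 0 at an unadjusted p under 0.05), with a median of 0.24. Il1b (3.35, SE 0.10), Cxcl10 (2.37, SE 0.07), Ccl5 (1.98, SE 0.10) and Cd86 (1.93, SE 0.19) led these. The classical genes Il12a, Il12b, Il6, Il23a, Cxcl9, Gpr18 and Fpr2 lay below the guide in both groups. Over the members above the guide, the median was 1.21 for the 5 alternative markers and 1.24 for 10 classical genes, a comparison that was not tested. The lists overlap in part, and Socs3 (1.26), 1 of these 10 classical genes, is also listed with IL-4 and IL-13 signalling.

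**Figure D4:**
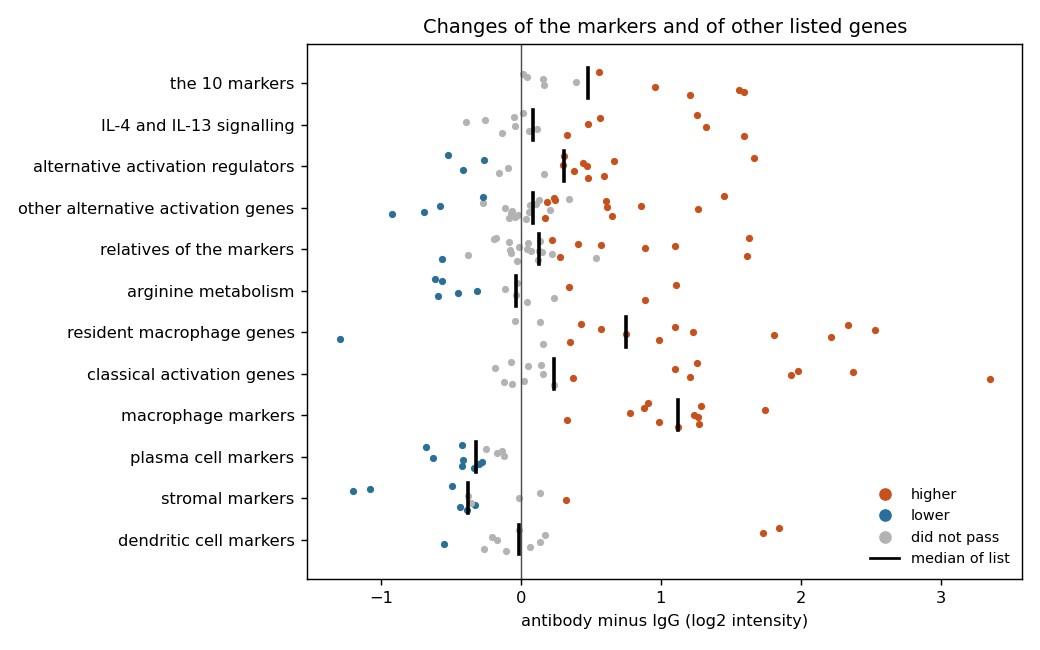
Change of each gene, antibody minus IgG in log2 intensity (horizontal axis), for the 10 markers and for the other lists (vertical axis); each point is a gene, coloured by whether it was called higher, lower or neither, and black lines are list medians. The median of the 10 markers, 0.48, lies between those of the plasma cell markers at −0.32 and the macrophage markers at 1.12.

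All of these changes stood beside a shift of cell type markers. Macrophage markers were higher in 11 of 11 measured cases, by 0.33 (Cd68) to 1.74 (Cd14), with a median of 1.12 and Csf1r itself at 1.12 (SE 0.05). Their summed intensity, on the linear scale, was 29989 to 30855 in antibody cultures and 16759 to 17507 in IgG cultures. Plasma cell markers were lower in 8 of 12 cases and higher in 0 (limma; 9 and 0 at an unadjusted p under 0.05), with a median of −0.32 and summed intensities of 16908 to 18482 against 21413 to 22005. Eaf2 fell by 0.68 (SE 0.04) and Pou2af1 by 0.63 (SE 0.05), and only Tnfrsf17 of the 12 lay below the guide. In such bulk RNA, fewer cells of a type and less RNA per cell cannot be told apart. The rises of Il4ra, Cd200r1, Mrc1, Clec10a and Folr2 all lay within the range of the macrophage markers. So did the change of Chil3, 0.40, which did not pass. The changes of Mgl2, Retnla, Arg1 and Cd163 lay under the lower end of that range. Clec10a, Mgl2, Chil3, Retnla and Cd163 were under the guide, where the size of a change is limited by background. The part that cell composition has in the changes of the 10 markers was not tested.

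Markers of other cells, some of which carry genes of the list, were looked at as well. Over all genes, 12.5% were called higher and 16% lower, so 1 or 2 calls in a list of 11 or 12 genes are near those shares. Dendritic cells also use Clec10a and Mgl2: of 11 of their markers, 2 were higher (Kmo and Irf8, by 1.84 and 1.73) and 1 lower (Itgax, by −0.55), with summed intensities of 1749 to 1885 against 1275 to 1303, or 1068 to 1203 against 1075 to 1092 without Irf8. Flt3, Xcr1, Siglech and Dpp4 were below the guide. Neutrophils also use Chil3: 1 of their 12 markers was higher (Mmp8, 1.23) and 0 were lower (limma; 1 and 0 unadjusted), with sums of 975 to 1106 against 563 to 583, or 220 to 230 against 226 to 230 without Mmp8, and 8 of the 12, Ly6g, S100a8 and S100a9 among them, were below the guide. Of 12 eosinophil, basophil and mast cell markers 9 were below the guide, among them Epx, Prg2, Mcpt8 and Cpa3, while Ccr3 was higher (0.69) and Il5ra lower (−0.52), with sums of 1683 to 1724 against 2275 to 2300. That fall is the signal of Il5ra alone, since the other 11 genes summed to 257 to 279 against 229 to 244. Of 10 T cell markers, Cd3e, Cd3d, Cd3g, Cd8a, Cd2 and Zap70 lay below the guide and Cd4, Cd28 and Il7r were higher (2.00, 1.70 and 0.82), with sums of 2434 to 2575 against 1233 to 1324. Stromal markers were lower in 6 of 11 cases and higher in 1, with a median of −0.38, Acta2 at −1.20 and Postn at −1.08, sums of 1162 to 1244 against 2145 to 2200, and Dcn and Lum below the guide. The part of these cells in the marker values was not tested.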

How the data were processed

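The 6 arrays (Mouse Gene 2.0 ST), 3 per group, were deposited as intensity values per probe set on a linear scale. RMA and limma are named, without version or role, per the submitters' processing notes. Build and level of summary: not given in the sources used here. If RMA was run in the usual way, a shift of most genes 1 way would not show and fold changes would be compressed.

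The deposited intensities were turned into log2. Genes were named through the annotation of the platform (41345 probe sets, of which 23521 carried 1 symbol, 1814 several and 16010 none); a RefSeq table (GRCm38.p6) changed 0 of the symbols. Where a gene had several probe sets, the brightest on average was taken; all 10 markers had 1. No filter was set. The test was limma 3.58.1 (lmFit and eBayes; R 4.3.3) with 4 residual degrees of freedom, adjusted by Benjamini-Hochberg across 22180 genes, called at 0.05. SE is limma's moderated standard error. In the pair of arrays with most ties, 6.88% of probe sets held exactly the same value, and ties within a group lower its measured spread. On simulated data for this comparison (5 runs of 22180 genes, 200 changed), 50.4% of changes of 0.5 and 90% of changes of 1 were found. In the real data a far larger share of genes was called, 12.5% higher and 16% lower. The adjustment depends on that share, so the simulated percentages are not the power of the real test. Pairs of genes were compared by exact permutation of the arrays. Figures used matplotlib 3.10.9.

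The members and the 14 other lists (208 genes, 194 measured) were chosen with earlier results of these data known. Named by rule were the 10 markers, Csf1r, up to 4 genes past the test per list by size of change (2 by p if none passed), and for each marker that passed, the 3 genes of most similar pattern. Promoters came from RefSeq. The alternatives tried were robust variances or an intensity trend, weights for arrays, median centring, cyclic loess, 3 filters on low signal, averaged probe sets, other thresholds, a block for the replicate number, and omission of single arrays. The number of arrays limits the precision.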

Additional observations from a re-analysis of the deposited data

How the results depend on the processing

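The counts of 5 markers higher and 0 lower kept to within 1.5 times under all alternatives run, at 4 to 6 higher and 0 lower: filters on low signal remove Clec10a, leaving 4, and omission of antibody replicate 3 adds Chil3, giving 6. The median change of the 10 markers, 0.48, was 0.53 with array weights, 0.54 with cyclic loess, 0.89 among genes above the 25th percentile of mean signal, and 1.21 both above the 50th percentile and above the receptor guide, where fewer markers are left. Leaving out each array in turn gave 0.423 to 0.595. Over all genes the median moved from −0.02 to 0.00 with cyclic loess. With the replicate number as a block, 5 markers were higher, and of the other listed genes 66 were higher and 28 lower in place of 68 and 29. Arrays with the same number did not deviate together: the correlations of their deviations from the group means were 0.08, −0.06 and 0.01, so the numbers were not taken to pair samples. The differences of Il4ra from Il13ra1 and of Arg1 from Nos2 kept their direction under each scaling and each omission. Among other lists, 43 counts or medians moved, mostly medians over fewer genes after a filter. Signal limits Clec10a, Mgl2, Chil3, Retnla and Cd163, all under the guide, and no scanner background was used here.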

Other observations

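For each marker that passed the test, the 3 genes above the background guide whose values over the 6 arrays were most like its own were found by the root mean square difference in log2 intensity, after each gene was centred on its own mean. The 2 groups lie far apart, so likeness here mostly means a rise of the same size, and it says nothing of shared control. Closest to Il4ra were Dse (0.034), which encodes an enzyme of dermatan sulfate synthesis, Sestd1 (0.043) and Fermt3 (0.044), the gene of the integrin activator kindlin-3. They rose by 1.62, 1.63 and 1.57. Closest to Cd200r1 were Hacd4 (0.016), an enzyme gene of long-chain fatty acid synthesis, Tnfaip2 (0.037) and the calcium-binding protein gene Sri (0.037), which rose by 1.54, 1.57 and 1.52. Beside Mrc1 stood the taurine transporter gene Slc6a6 (0.033), the RNA sensor gene Tlr8 (0.034) and the cytoskeletal adaptor gene Pstpip1 (0.037), with rises of 1.20, 1.25 and 1.22. Folr2 was most like the immunoproteasome subunit gene Psmb10 (0.039), Tmem179b (0.041) and Mospd3 (0.042), which rose by 0.58, 0.53 and 0.57. Clec10a, itself under the guide, had no gene as near among those above it. The nearest were Nrcam (0.063), Slfn4 (0.069) and Clcn7 (0.070), with rises of 0.93, 0.87 and 0.99. Genes under the guide, where Clec10a lies, were not searched.

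Antibody replicate 3 gave the highest of the antibody values for 3 of the 5 markers above the guide (Mrc1, Il4ra and Cd200r1) and the lowest for 4 of the 5 below it (Clec10a, Chil3, Retnla and Cd163). The same count was not made over all genes, so these counts do not show a trait particular to the markers.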
